A study of Zea mays with 16 samples.

Results

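Transcripts of the B73 and the Mo17 allele were compared in maize hybrids at genes where no new *Mu* element was called on the B73 allele. For every gene, only those seedlings were kept whose *Mu*-flanking amplicons gave a call of no insertion in that gene and whose RT-PCR library gave a read number for both alleles. This left 55 of the 102 measured combinations of a gene and a seedling (53.9%), which cover all 17 genes and all 8 seedlings. The other 47 combinations, in which the seedling carried the insertion, were left out, and 1 insertion-free combination had no count (Zm00001d020901 in seedling 8).

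The plants were F1 hybrids of B73 and Mo17, and shoots of seedlings 6 days old were sampled. The *Mu*-active line was of B73 background, into which *Mutator* activity had been introgressed, and the scheme of the cross gives it as the male parent, while the Mo17 line had no active *Mu* elements. Each of the 8 seedlings gave an amplicon library of *Mu*-flanking DNA for the insertion calls and an RT-PCR amplicon library for the allele counts, and the number in the labels joins the libraries of a seedling. Insertion-free means that no insertion was called. The number of reads behind a call is not given in the sources used here, and whether a kept seedling carried an insertion that was missed was not tested. The term refers to the gene in question alone, since every seedling carried insertions in 1 to 9 of its 11 to 14 measured genes. Seedlings therefore served as insertion-free plants for 4 to 11 genes each, and the set of genes differed from seedling to seedling. In the labels the molecule of all libraries is genomic DNA, whereas the methods describe total RNA and reverse transcription for the allele counts. The tissue could not be checked against marker genes, because the counts cover 17 amplicons.

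B73 and Mo17 are inbred lines from different breeding pools of North American maize, and their hybrid is a common system for the study of allele-specific expression. In an F1 plant both alleles of a gene lie in the same nuclei and meet the same transcription factors. For this reason, unequal transcript of the 2 alleles is generally read as a difference linked to the allele itself, in its regulatory sequence, its transcript stability or its chromatin. Imprinting can also make alleles of the female and the male parent unequal, and with a cross made in 1 direction the parent of origin and the inbred line cannot be told apart. The identifiers follow the B73 RefGen_v4 annotation, and 0 of the 17 matched the gene table used here, so the genes are named by identifier and no role or position is given for them.

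The reads were assigned to an allele by a short tag around a position at which the parents differ. In 16 genes the tags differ by 1 substitution and in 1 gene by the length of a run of C. Of the 17 tags of B73, 15 are 13 bases long, and in 13 genes the substitution lies at position 7 of the tag (position 1 is its 5′ base). The tags deposited for the opposite strand were the exact reverse complements in all 17 genes, and 0 tags of a gene occurred in the tags of another. The tags are shown for the 6 genes that passed the test below and for Zm00001d012812, because their ratios rest on telling these sequences apart. Capitals mark the bases that differ between the parents.
Zm00001d049619 B73: gggtgaGaaggtg
Zm00001d049619 Mo17: gggtgaAaaggtg
Zm00001d008642 B73: tggCgacgctgat
Zm00001d008642 Mo17: tggTgacgctgat
Zm00001d023962 B73: gaccctGgagttg
Zm00001d023962 Mo17: gaccctTgagttg
Zm00001d018461 B73: ctcggaAgcggga
Zm00001d018461 Mo17: ctcggaGgcggga
Zm00001d017424 B73: attgaTgccgttg
Zm00001d017424 Mo17: attgaCgccgttg
Zm00001d012812 B73: gcccagAtgcggt
Zm00001d012812 Mo17: gcccagCtgcggt
Zm00001d039683 B73: ctCCCCCCCCCCac
Zm00001d039683 Mo17: ctCCCCCCCCCCCac

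With the B73 base first, these differences are G7A in Zm00001d049619, C4T in Zm00001d008642, G7T in Zm00001d023962, A7G in Zm00001d018461, T6C in Zm00001d017424 and A7C in Zm00001d012812. In Zm00001d039683 the capitals mark the whole run, which has 10 C in B73 and 11 C in Mo17. A B73 read that gains 1 C in this run, or a Mo17 read that loses 1 C, carries the tag of the other allele, and how often this happened could not be measured from the counts. Both alleles of a gene were amplified by the same primers, of 20 to 25 bases. In the 16 genes whose primers were listed, 0 tags lay whole inside a primer. Partial overlap of a tag with the end of a primer was not examined. Whether both alleles were amplified equally well was not tested. The primers of the 2 genes with the lowest B73 share are given because all of their reads, of either allele, come from the products of these pairs.
Zm00001d049619 forward primer: ctgctcgtgttggtctggttgc
Zm00001d049619 reverse primer: cttgatcttgtcggcgtgtgggtac
Zm00001d008642 forward primer: gcgcaggctaatcagaggaagaac
Zm00001d008642 reverse primer: cgcagccaggtctcctccttca

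The insertion-free seedlings held 12300 of the 20910 tag reads. A gene had 141 to 2143 reads in all (median 520), and a single seedling gave 3 to 1663 reads for a gene (median 106). Only 2 combinations had fewer than 20 reads, those of Zm00001d017424 and Zm00001d039683 in seedling 8. Depth was uneven, because in 11 of the 17 genes 1 seedling held more than 50% of the reads. The libraries were made by PCR and no molecular identifiers are described, so the intervals of single seedlings (Clopper-Pearson, 95%) cover counting error only. Genes were measured in 2 to 6 insertion-free seedlings, with 7 genes in 2, 3 genes in 3, 4 genes in 4, 2 genes in 5 and 1 gene in 6.

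A difference between the alleles was called in 6 of the 17 genes, most of them in favour of Mo17. The 6 genes (35.3%) had an adjusted p under 0.05 in limma, which tested the log2 ratio of B73 over Mo17 reads against 0 with seedlings as replicates, weighted by their depth. B73 was lower in 5 of them (29.4%) and higher in 1 (5.88%). A difference of 2-fold or more was fitted in 3 of the called genes (17.6%), and in this fit B73 was the lower allele in each. The 3 were Zm00001d049619, Zm00001d008642 and Zm00001d023962. The p-values measure the spread between these seedlings. In every gene they also lean on the spread that is shared over all genes, most of all with 2 seedlings. Leaving out a seedling that gave no value to a gene could therefore move its adjusted p by limma. Without seedling 6 it was 4.56e-04 in place of 0.0140 in Zm00001d018461. Without seedling 5 it was 1.20e-16 in place of 0.00414 in Zm00001d049619.

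**Figure D1:**
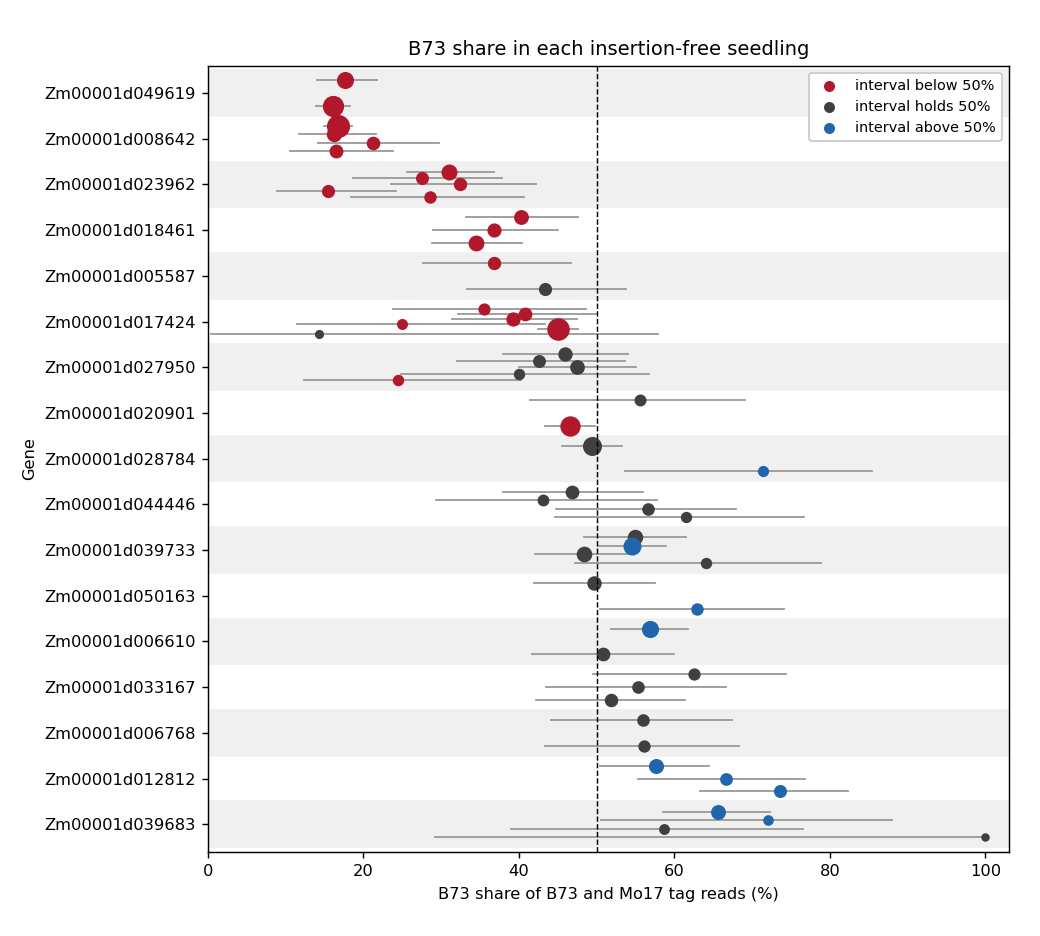
B73 share of the B73 and Mo17 tag reads (x axis, percent) in each insertion-free seedling, with genes down the page from the lowest to the highest pooled share. Each point is 1 seedling, its area grows with its reads, grey lines are Clopper-Pearson 95% intervals, and the dashed line is an equal share. All seedlings of Zm00001d049619 and Zm00001d008642 lie between 16.0% and 21.2%.

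In Zm00001d049619, the gene with the lowest B73 share, the B73 tag had 69 reads in seedling 1 and 182 reads in seedling 2, against 322 and 953 reads of the Mo17 tag. Both seedlings were far below an equal share, at 17.6% and 16.0%. The fitted ratio of B73 over Mo17 was 0.198 (95% interval 0.160 to 0.244, adjusted p = 0.00414 by limma, n = 2). With either seedling left out the log2 ratio was -2.39 or -2.21. A single seedling has no spread of its own, so the adjusted p, 0.0719 without seedling 1 and 0.106 without seedling 2, then rests wholly on the spread of the other genes.

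Zm00001d008642 showed nearly the same imbalance in 4 seedlings. The B73 tag had 277, 37, 25 and 22 reads in seedlings 2, 3, 5 and 6, against 1386, 191, 93 and 112 reads of the Mo17 tag. The share of B73 was thus 16.7%, 16.2%, 21.2% and 16.4%, and each of the 4 intervals lay below 50%. The fitted ratio was 0.204 (0.180 to 0.230, adjusted p = 4.55e-05, n = 4), the most precise of all genes. Its interval in percent of B73 was 15.3% to 18.7%. Seedling 5 stood above the others, but its own interval of 14.2% to 29.7% holds their values.

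Zm00001d023962 had an intermediate imbalance. The B73 tag had 87, 25, 34, 15 and 20 reads in seedlings 2, 3, 6, 7 and 8, against 194, 66, 71, 82 and 50 reads of the Mo17 tag. All 5 seedlings had fewer B73 reads, with shares of 27.5% to 32.4% in 4 of them and 15.5% in seedling 7. The fitted ratio was 0.403 (0.296 to 0.549, adjusted p = 0.00414, n = 5).

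The other 2 genes called lower in B73 had fitted differences of less than 2-fold. In Zm00001d018461 the share was 40.2%, 36.7% and 34.4% in seedlings 1, 5 and 7, all below 50% with their intervals. The fitted ratio was 0.585 (0.469 to 0.729, adjusted p = 0.0140, n = 3), and the call was lost without seedling 7 (adjusted p = 0.0569). Zm00001d017424 was the gene with most insertion-free seedlings and the smallest difference that was called. Its B73 tag had 22, 51, 60, 8, 677 and 1 reads in seedlings 1, 2, 4, 6, 7 and 8, against 40, 74, 93, 24, 828 and 6 reads of the Mo17 tag. Every seedling had more Mo17 reads, which gives the smallest p that 6 seedlings allow in an exact sign-flip permutation test (two-sided, p = 0.0312, adjusted p = 0.354 over the 17 genes). With these numbers of seedlings the adjusted p of this test could not fall under 0.05 in any gene.

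How large the difference of Zm00001d017424 was depended on the seedling. Seedling 7, with 79.9% of the reads of this gene, had a share of 45.0%, above the 14.3% to 40.8% of the other 5. The fitted ratio, in which this seedling weighs most, was 0.773 (0.665 to 0.898, adjusted p = 0.0157), whereas the reads of the other seedlings pooled to 37.5% B73. With every seedling given the same weight the log2 ratio was -0.99 in place of -0.37. The call was lost without seedling 2 (adjusted p = 0.0513) and in a model with seedling terms, the replicate block (log2 ratio -0.29, adjusted p = 0.0987).

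**Figure D2:**
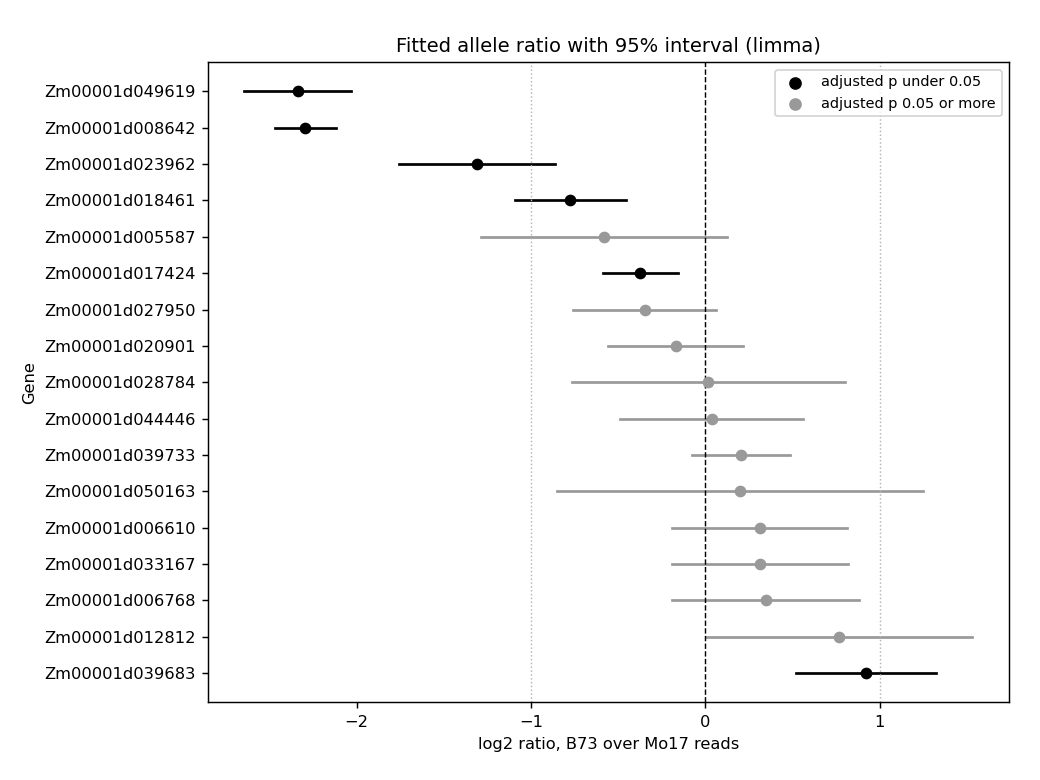
Fitted log2 ratio of B73 over Mo17 reads (x axis) for each gene (y axis, ordered by pooled share) with 95% intervals from limma over 2 to 6 insertion-free seedlings. Black marks genes with an adjusted p under 0.05, the dashed line is an equal level and dotted lines are 2-fold differences. The 3 lowest genes have fitted ratios past 2-fold, and no gene on the B73 side does in this depth-weighted fit.

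On the side of B73, 1 gene was called. Zm00001d039683 had 128, 18, 17 and 3 reads of the B73 tag in seedlings 1, 6, 7 and 8, against 67, 7, 12 and 0 reads of the Mo17 tag. B73 led in all 4 seedlings, with shares of 65.6%, 72.0%, 58.6% and 100%, but seedling 8 rests on 3 reads and its interval starts at 29.2%. The fitted ratio was 1.89 (1.44 to 2.50, adjusted p = 0.0122, n = 4). Seedling 1 holds 77.4% of the reads, and without it the adjusted p was 0.171 at a log2 ratio of 0.90 in place of 0.92. With every seedling given the same weight the log2 ratio was 1.38, past 2-fold, with an adjusted p of 0.0811 by limma. This is the gene whose tags differ only in the length of the C run.

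Zm00001d012812, with an ordinary substitution in its tag, leaned to B73 almost as much but did not pass the test. B73 had 118, 54 and 67 reads in seedlings 4, 5 and 7, against 87, 27 and 24 reads of Mo17. The shares of 57.6%, 66.7% and 73.6% all had intervals above 50%. The fitted ratio was 1.70 (1.001 to 2.89) with an adjusted p of 0.121 by limma, the lowest among the 11 genes not called. Without seedling 5 or without seedling 6, which holds no read of this gene here, the adjusted p was 0.0178 and 0.00452. It was 0.00199 with the replicate block. Without seedling 4 the log2 ratio was 1.22 in place of 0.77.

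For the remaining 10 genes the interval of the ratio held an equal level. In 8 of the 11 genes not called the interval lay within a 2-fold difference in either direction, and in 3 it did not (Zm00001d005587, Zm00001d012812 and Zm00001d050163). These intervals are too narrow where true shares vary alike at every depth. The tightest of the uncalled genes was Zm00001d039733, with a ratio of 1.15 (0.947 to 1.40, n = 4), and the widest was Zm00001d050163, with 1.15 (0.555 to 2.38, n = 2). Zm00001d044446, with 148 B73 and 144 Mo17 reads, was close to an equal level in the pool, yet its 4 seedlings ran from 43.1% to 61.5%. Zm00001d028784, with 355 B73 and 349 Mo17 reads, was equally balanced because seedling 2 (49.3% of 669 reads) outweighs seedling 3 (71.4% of 35 reads). Its bound rests on seedling 2, without which the log2 ratio was 1.28 in place of 0.02. In Zm00001d006768, by contrast, both seedlings gave the same share, 56.0% of 75 reads and 56.1% of 66 reads.

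The other uncalled genes leaned by similar amounts to either side. B73 was the lower allele in Zm00001d005587 (ratio 0.668, 0.409 to 1.09), in Zm00001d027950 (0.785, 0.591 to 1.04) and in Zm00001d020901 (0.888, 0.679 to 1.16). All 5 seedlings of Zm00001d027950 were below 50%, at 24.4% to 47.5%. B73 was the higher allele in Zm00001d006610 (1.24, 0.875 to 1.76), in Zm00001d033167 (1.24, 0.877 to 1.76) and in Zm00001d006768 (1.27, 0.877 to 1.84). None of these 6 differences passed the test over seedlings, with adjusted p from 0.153 to 0.252 by limma.

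**Figure D3:**
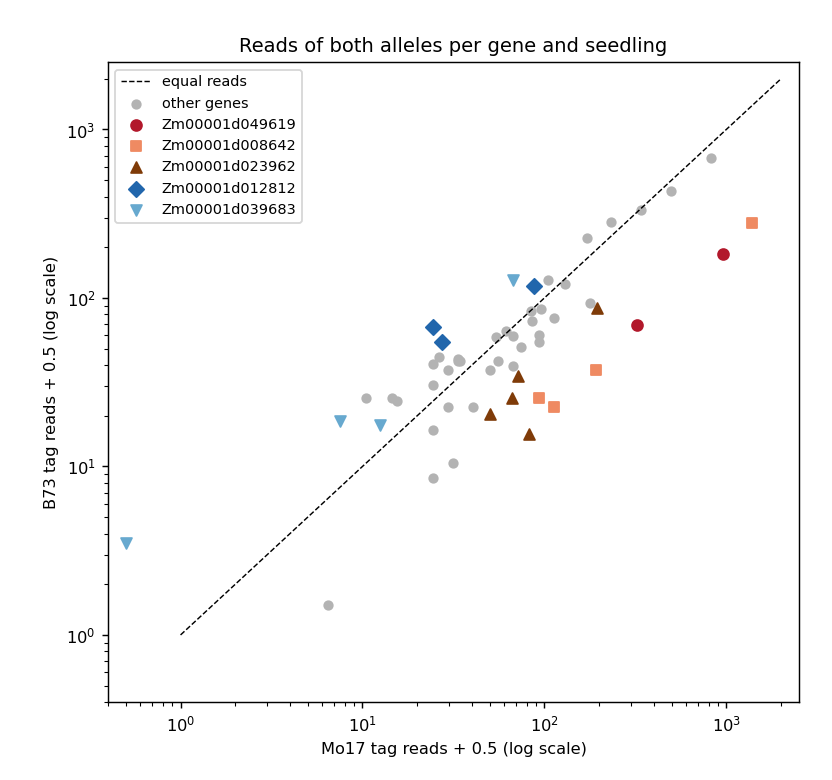
Reads of the B73 tag (y axis) against reads of the Mo17 tag (x axis) per gene and seedling, both with 0.5 added and on log scales. Each symbol is 1 of the 55 combinations, the dashed line marks equal reads, and 5 genes are picked out by colour and shape. Zm00001d049619 and Zm00001d008642 run parallel to the line over the whole range of their depth.

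Ordered by their B73 share, most genes overlapped with the next. By pooled reads the share ran over the 17 genes from 16.4% in Zm00001d049619 to 65.9% in Zm00001d039683, with a median of 50.4%, and 8 genes were below and 9 above an equal share. Of the 16 pairs of neighbours in this order, 14 had overlapping values between seedlings. The pairs without overlap were Zm00001d023962 (up to 32.4%) with Zm00001d018461 (from 34.4%) and Zm00001d006768 (up to 56.1%) with Zm00001d012812 (from 57.6%). Neither place separates groups of genes, because the ranges of other genes span it. Zm00001d027950 (24.4% to 47.5%) spans the first and Zm00001d028784 (49.3% to 71.4%) the second. The order of Zm00001d049619 and Zm00001d008642, at 16.4% and 16.8% of their pooled reads, is thus not settled by these seedlings.

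All insertion-free reads together held 4693 B73 reads, or 38.2%, but this sum describes the deepest genes. The 3 genes with most reads, Zm00001d008642, Zm00001d017424 and Zm00001d049619, gave 5553 reads (45.2%), and all of them favoured Mo17. Without the 2 genes of the lowest share, 4081 of 8631 reads (47.3%) were from B73. Counted by single seedlings, 22 of the 55 intervals lay below 50%, 9 above it and 24 held it. In 7 genes every insertion-free seedling had fewer B73 than Mo17 reads, in 5 genes every seedling had more, and in 5 genes seedlings fell on both sides.

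Within a seedling, all genes were read from the same library, so that a low share can be set against the other genes of that plant. The share of Zm00001d049619 in seedling 1, 17.6%, was below all 7 other genes (35.5% to 65.6%). In seedling 2, Zm00001d049619 and Zm00001d008642 stood at 16.0% and 16.7%, and the other 4 genes ran from 31.0% to 56.8%. Zm00001d008642 was also the lowest gene of seedlings 3, 5 and 6, where the others started at 27.5%, 36.7% and 25%. In the 5 plants that measured either gene, no other gene had a share as low. The 2 genes were picked by their pooled shares of these same reads, so this is a description and not a test. Lower shares occurred in plants that measured neither of them. They were 15.5% for Zm00001d023962 in seedling 7 and 14.3% for Zm00001d017424 in seedling 8, the latter of 7 reads.

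Seedlings as a whole did not lean to a parent in the same way, but their genes differ. The median share over the genes of a seedling was 46.3%, 35.9%, 42.5%, 48.6%, 56.0%, 43.1%, 46.5% and 61.5% for seedlings 1 to 8. It was below 50% in 6 seedlings and above it in 2. Seedling 8, at the top, had 5 genes and 158 reads in all, the fewest of any seedling, and 4 of its genes were above their own pooled share. Seedling 2, at the bottom, was 1 of the 5 seedlings that measured Zm00001d049619 or Zm00001d008642, and the only seedling that measured both.

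The spread between seedlings of the same gene was set against read sampling, which covers counting error only and takes each PCR read as a molecule. The SD of the share ran from 0.0429 percentage points in Zm00001d006768 (n = 2) to 18.1 points in Zm00001d039683 (n = 4), with a median of 6.47 points over the 17 genes. The chi-square of the reads divided by the degrees of freedom, which is near 1 when seedlings differ by read sampling only, was 1.80 over all genes (68.4 over 38, 95% interval 1.20 to 2.99) and exceeded 1 in 10 genes. It was 0.550 and 0.570 in the genes with the lowest shares, Zm00001d049619 and Zm00001d008642, so their seedlings differed by no more than their reads allow. The highest value, 6.50, was that of Zm00001d028784, where seedling 3, with 35 reads, differs from seedling 2.

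Much of this spread lay in seedling 7, which was singled out after its values were seen and is described without a test. It gave 37.4% of the chi-square from 11 of the 55 combinations. Without seedling 7 this ratio of chi-square to degrees of freedom was 1.10, while leaving out any other seedling gave 1.64 to 2.07. In 9 genes seedling 7 could be set against 2 or more other insertion-free seedlings, and in 8 of these it lay outside all of them. Zm00001d044446 was the exception. Among so few seedlings an end position is common, since of 3 seedlings only 1 lies between the others. The other seedlings were counted over all genes with 3 or more insertion-free seedlings, which are these 9 and Zm00001d008642. There seedling 8 was the lowest in 1 and the highest in 3 of 5. Seedling 6 was the lowest in 1 and the highest in 1 of 8, and seedling 1 the lowest in 0 and the highest in 1 of 6. Seedlings 2 to 5 had 3 or 4 such genes each and were at an end in 0 to 2 of them.

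**Figure D4:**
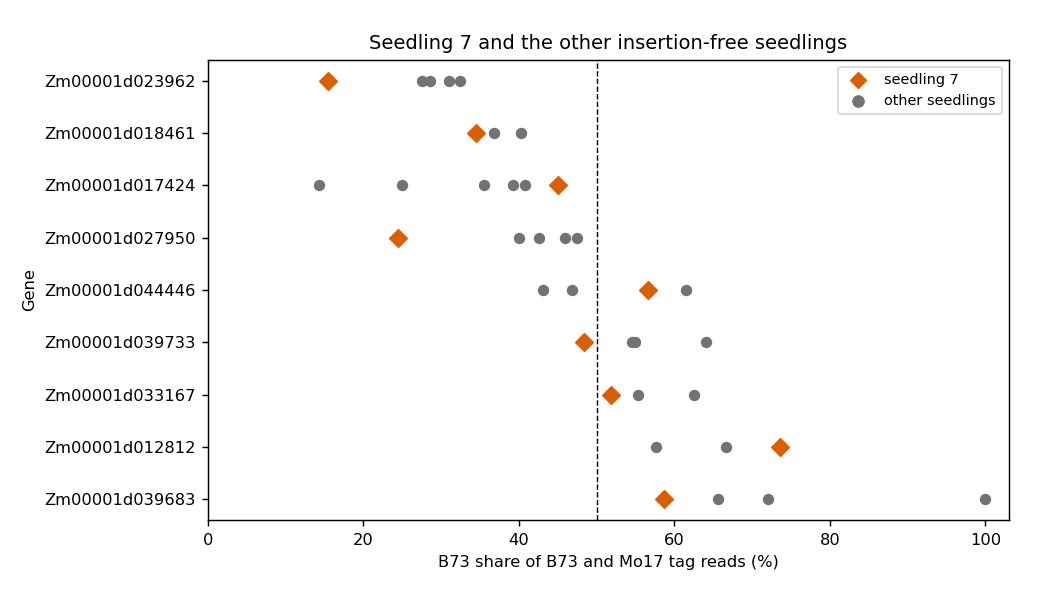
B73 share of tag reads (x axis, percent) in seedling 7 (orange diamonds) and in the other insertion-free seedlings (grey points) for the 9 genes with at least 3 insertion-free seedlings, seedling 7 included. The dashed line is an equal share. Seedling 7 lies below the others in 6 genes, above them in 2 and between them in 1.

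The B73 share of seedling 7 was below that of the other seedlings in 6 genes. It was 15.5% in Zm00001d023962, against 27.5% to 32.4% in the other 4 seedlings, and 24.4% in Zm00001d027950, against 40.0% to 47.5% in the other 4. In Zm00001d039733 it was 48.4%, against 54.6% to 64.1%. The differences were smaller in Zm00001d018461 (34.4% against 36.7% to 40.2%), Zm00001d033167 (51.8% against 55.3% to 62.5%) and Zm00001d039683 (58.6% against 65.6% to 100%). It was above the others in Zm00001d017424 (45.0% against 14.3% to 40.8%) and Zm00001d012812 (73.6% against 57.6% to 66.7%). Seedling 7 thus moved in both directions and did not favour a parent throughout. Seedling 7 carried an insertion in 1 of its 12 measured genes, the fewest of the 8 seedlings, and gave 3494 reads here. The part of these features in its shares was not tested.

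The genes can also be described by features that the choice of seedlings did not use. In the seedlings left out, the insertions lay in the promoter of 4 genes, and in all 4 the insertion-free B73 share was above 50%, at 55.6% to 65.9% (median 59.7%). Over all 17 genes the share was above 50% in 9. Of the promoter genes only Zm00001d039683 was called, and the fitted intervals of Zm00001d006768 and Zm00001d033167 held an equal level. For 9 genes the insertion site was the 5′ UTR, and their insertion-free share ran from 16.8% to 53.5% (median 43.5%), below 50% in 6 and above it in 3. The 3 genes with a site in intron 1 had 16.4% to 53.6% and the gene with a site in the 3′ UTR had 55.4%. These are values of alleles without the insertion, and over so few genes they are a description.

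By the base that the tag reads, 7 genes had G or C in B73 and A or T in Mo17. Their share had a median of 43.7% (16.4% to 55.4%), below 50% in 4 and above it in 3, and they include the 3 genes with the lowest shares. The 8 genes with A or T in B73 and G or C in Mo17 had a median of 48.9% (36.8% to 63.4%) and were split into 4 below and 4 above 50%. The 11 transitions had a median of 47.0% and the 5 transversions of 50.4%. Whether the base itself changes the number of reads was not tested, and reads of near-identical copies of a gene, if amplified, cannot be told apart from its own.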

How the data were processed

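MiSeq libraries of *Mu*-flanking and RT-PCR amplicons came from shoots of 8 F1 seedlings. The deposited table holds, per the file headers, whole-number counts of reads per gene, allele and seedling, which the authors made by searching allele tags and their reverse complements, with no normalization. The authors deposited insertion calls as words, made from reads mapped to B73 RefGen_v4. The counting tool, its filters and the number of reads that a call required are not given in the sources used here. A deposited list of insertion positions was not used.

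Seedlings with no insertion in a gene and a count for both alleles were kept. Both alleles come from the same library, so depth cancels in the ratio. log2((B73 + 0.5)/(Mo17 + 0.5)) was fitted per gene with limma 3.58.1 in R 4.3.3, weighted by read depth (the inverse of the summed reciprocal counts) and with moderated variances. Tests were two-sided with Benjamini-Hochberg adjustment over the 17 genes and a threshold of 0.05. Fold changes are on this log2 scale with 0.5 added. Exact intervals, chi-squares and figures were made in Python 3.11.15 with numpy 2.4.6, scipy 1.17.1, pandas 2.3.3 and matplotlib 3.10.9. The fit was tested on simulated data: its intervals held their level where the spread scales with read sampling and were too narrow where true shares vary alike at every depth. Which case these data resemble was not determined. Alternatives changed the added count, weights, read minimum, model, seedling terms, test, reference and adjustment, or left out a seedling.

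Seedlings gave 158 to 4269 insertion-free reads. All 17 genes could be named. Reads per seedling are given for called genes of 2-fold or more, for genes with 6 or more seedlings and for the gene whose tags differ in length, and Zm00001d012812 was added after its values were seen. The genes, the rule and the tests were chosen with earlier results of these data known.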

Additional observations from a re-analysis of the deposited data

Results flagged for a closer look

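In Zm00001d008642 the B73 share of seedling 5 was 21.2% (25 B73 and 93 Mo17 reads), while the other 3 insertion-free seedlings had 16.2% to 16.7%. The gap to the nearest of them is large against the range of all 4. The same gap was examined in the 7 genes with 4 or more insertion-free seedlings and passed the limit in 1. Chance alone passes it in about 1 of 20 groups if all values have the same spread. That rate need not hold here, because depth was unequal, with 118 reads in seedling 5 and 1663 in seedling 2. The Clopper-Pearson 95% interval of seedling 5, 14.2% to 29.7%, holds the other values.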

How the results depend on the processing

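Of 306 comparisons of a gene's log2 ratio under an alternative, 272 kept direction and side of the threshold. An added count of 1, a minimum of 20 reads and centring on the median gene changed no call (6 genes, 5 lower and 1 higher). Exact binomial tests on pooled reads take each read as a replicate and ignore the spread between seedlings, so their p-values are too small where seedlings differ. They called 11 genes, 7 lower and 4 higher, and with all reads divided by 10 they called 3, lower, and 0 higher. The exact sign-flip permutation test over seedlings called 0, lower 0 and higher 0. In that test 1 gene had an unadjusted p under 0.05, and only 1 gene had enough seedlings to reach it, so it says nothing about the others. Holm adjustment left 3 lower genes (4 in all, without Zm00001d017424 and Zm00001d018461), and equal weights left 0 higher, as Zm00001d039683 had an adjusted p of 0.0811 by limma at a larger log2 ratio of 1.38. The quasi-binomial model called 2 higher, adding Zm00001d012812. With seedling terms (the replicate block, pairing genes by seedling) it also called 2 higher, and 4 lower, with Zm00001d017424 lost at a log2 ratio of -0.29 and an adjusted p of 0.0987. The spread over read sampling was 1.96 with these terms. The replicate block changed no other call.

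Leaving out each seedling gave 4 to 7 called genes, 3 to 5 lower and 0 to 2 higher, and a spread over read sampling of 1.10 to 2.07. The count of lower genes was 3 without seedling 2, and that of higher genes was 0 without seedling 1 and 2 without seedling 5 or 6. Directions reversed only in genes that were not called. Zm00001d020901 had a log2 ratio of 0.0583 with equal weights and in the sign-flip test, and -0.20 to 0.32 with a seedling left out. With a seedling left out, Zm00001d044446 ran from -0.0830 to 0.20, Zm00001d028784 from -0.0388 to 1.28 and Zm00001d050163 from -0.0172 to 0.75. The cause was not tested. The number of seedlings limits the genes with 2 of them, also those with many reads.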
